A study of Mus musculus with 42 samples.

Results

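The 10 genes described here encode enzymes that deal with reactive oxygen species and their products, and they are Sod1, Sod2, Cat, Cbr1, Gpx1, Gpx4, Nqo1, Hmox1, Gclm and Txnrd1. They were taken by name from the 52636 gene lines of each culture count file, all 10 were among the 17173 genes tested, and they were looked up by gene identifier in 6 lists of chromatin peaks. Sod1 and Cbr1 lie in the segment of mouse chromosome 16 that Ts65Dn mice carry in an additional copy, and the other 8 lie outside it.

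Superoxide, which leaks from the respiratory chain and is made by oxidases, is turned into hydrogen peroxide by superoxide dismutases, and hydrogen peroxide is then removed by catalase, by glutathione peroxidases and by peroxiredoxins. Glutathione and thioredoxin supply the electrons, and both depend on reductases that use NADPH. Many of these genes carry antioxidant response elements, bound by the factor NRF2 (gene Nfe2l2) with small MAF proteins and opposed by BACH1, and in brain several of them are known to be stronger in glia and vessels than in neurons.

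The study asked what removing a copy of Brwd1 does on a trisomic background. RNA had been sequenced from primary cultures of embryonic day 16 forebrain, 3 libraries for each of 3 genotypes, euploid, Ts65Dn and Ts65Dn;Brwd1+/-, and the labels call the cultures pooled male and female. The mice were on a mixed DBA/2J and B6EiC3Sn/J background, a Ts65Dn mouse carries 3 copies of the distal part of chromosome 16 and of the centromeric part of chromosome 17, and the Ts65Dn;Brwd1+/- mouse should in addition carry 1 disrupted Brwd1 allele. Cultures were kept in medium with AraC, a compound that holds back dividing glia. SMARCA2/4, the ATPases of the chromatin remodelling complex BAF, were mapped by ChIP-seq in adult male hippocampus (6 to 8 weeks) with tissue of 2 animals in each of 4 libraries per genotype, and open chromatin by ATAC-seq in NeuN+ (neuronal) nuclei sorted from adult male hippocampus, with 3 libraries per genotype. Each gave 1 pooled peak list per genotype. Nothing ties the libraries of a genotype to separate litters, so p-values measure the spread between these libraries, which may be technical.

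Library totals lay between 17270070 and 25892802 counts in genes. The libraries labelled Ts65Dn;Brwd1+/-, written Brwd1-labelled libraries from here on, went against their label at the targeted gene. Brwd1 stood at 89.4 ± 3.66 CPM (counts scaled to the library total, SD, n = 3) in euploid, 127 ± 2.13 in Ts65Dn and 139 ± 12.3 in those libraries, which did not fall below Ts65Dn (adjusted p = 0.186), although counts per gene do not show whether an allele is disrupted. Xist, which is transcribed from the inactive X chromosome of female cells, stood at 0.775 CPM in euploid, 0.931 in Ts65Dn and 1780 CPM in the Brwd1-labelled libraries. The near absence of Xist in the euploid and Ts65Dn libraries goes against their label of pooled male and female. The sex of the cells and the Ts65Dn;Brwd1+/- genotype cannot be told apart in the comparisons that use the Brwd1-labelled libraries.

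The promoters of the genes were searched for the core of the antioxidant response element, TGACNNNGC, on both strands. RefSeq windows (GRCm38.p6, 250 bases before to 50 after each annotated start) were given for 9 of the 10 genes, in 14 windows, and 12.4% of 32851 such windows over all genes held the core. Of the 14 windows, 3 held it, and they belong to Sod1, Gclm and Txnrd1. Each held it once and on the opposite strand, so that the letters printed are its reverse complement. These 3 windows are shown with the core in capitals, each 5′ to 3′ on the transcribed strand, Sod1 at chr16:90220512-90220811, Gclm at chr3:122245307-122245606 and the second of the Txnrd1 windows at chr10:82858956-82859255, all on the plus strand.
Sod1: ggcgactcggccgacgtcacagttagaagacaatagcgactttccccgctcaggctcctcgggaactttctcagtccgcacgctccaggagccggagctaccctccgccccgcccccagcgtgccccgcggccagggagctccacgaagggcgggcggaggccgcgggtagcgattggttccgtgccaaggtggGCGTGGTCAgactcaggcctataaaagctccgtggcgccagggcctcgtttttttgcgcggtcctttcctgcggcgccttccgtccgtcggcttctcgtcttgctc
Gclm: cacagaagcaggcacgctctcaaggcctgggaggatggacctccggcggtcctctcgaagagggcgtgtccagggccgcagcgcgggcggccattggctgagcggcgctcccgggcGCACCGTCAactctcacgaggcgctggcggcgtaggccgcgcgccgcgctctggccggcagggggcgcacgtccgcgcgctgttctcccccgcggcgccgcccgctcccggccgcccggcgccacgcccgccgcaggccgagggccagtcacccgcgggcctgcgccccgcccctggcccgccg
Txnrd1: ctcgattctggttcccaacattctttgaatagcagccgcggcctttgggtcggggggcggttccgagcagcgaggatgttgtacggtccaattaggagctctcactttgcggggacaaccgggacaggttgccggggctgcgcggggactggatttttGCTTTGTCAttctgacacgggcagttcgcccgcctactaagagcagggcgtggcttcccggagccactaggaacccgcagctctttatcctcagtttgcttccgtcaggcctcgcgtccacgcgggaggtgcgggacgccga

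The Cbr1, Nqo1 and Gpx1 windows are shown because their open chromatin differed between the peak lists. They lie at chr16:93607587-93607886 (plus strand), chr8:107403156-107403455 (minus strand) and chr9:108338830-108339129 (plus strand), and they held no core, which says only that these letters are not in these windows.
Cbr1: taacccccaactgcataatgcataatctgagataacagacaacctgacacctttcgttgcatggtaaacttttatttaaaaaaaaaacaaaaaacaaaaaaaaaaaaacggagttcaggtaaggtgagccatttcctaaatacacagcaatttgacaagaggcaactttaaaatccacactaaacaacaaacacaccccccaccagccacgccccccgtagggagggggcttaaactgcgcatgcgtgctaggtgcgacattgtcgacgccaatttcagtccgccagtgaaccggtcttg
Nqo1: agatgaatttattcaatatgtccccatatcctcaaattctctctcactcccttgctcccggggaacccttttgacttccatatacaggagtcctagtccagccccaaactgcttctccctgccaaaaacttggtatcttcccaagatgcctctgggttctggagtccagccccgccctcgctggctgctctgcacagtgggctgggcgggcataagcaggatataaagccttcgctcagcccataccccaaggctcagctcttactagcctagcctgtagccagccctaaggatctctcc
Gpx1: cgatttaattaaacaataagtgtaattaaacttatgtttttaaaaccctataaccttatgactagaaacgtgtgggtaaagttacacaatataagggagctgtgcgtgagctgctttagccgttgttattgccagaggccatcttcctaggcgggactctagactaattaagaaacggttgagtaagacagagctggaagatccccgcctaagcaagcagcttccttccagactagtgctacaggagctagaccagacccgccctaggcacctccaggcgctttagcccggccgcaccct

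The windows differed in base composition. Guanine and cytosine made up 66.7% of the Sod1 window and 79.7% of the Gclm window, against 44.0% of the Cbr1 window and a median of 52.7% over all windows. GGGCGG, the core bound by SP1, was in 35.7% of all windows, on either strand. It occurred 4 times in the Sod1 window, 4 times in the Gclm window and 4 times in the Sod2 window, and not in the Cbr1 window.

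Of the 10 genes, 8 passed the threshold (adjusted p under 0.05, quasi-likelihood test of edgeR, adjusted after Benjamini and Hochberg over all 17173 genes) between Ts65Dn and euploid cultures, where 46.7% of all genes passed. Of these, 7 rose, as did 25.6% of all genes, and 1 fell, as did 21.1%. Their median log2 fold change was 0.38, against 0.04 over all genes, and the 3 libraries of both genotypes did not overlap for any of the 10, 8 with Ts65Dn higher and 2 with it lower, where 56.8% of all genes did not overlap, 31.2% with Ts65Dn higher and 25.5% with it lower. Between the Brwd1-labelled libraries and Ts65Dn, 7 passed where 58.1% of all genes did, 1 higher (27.6% of all genes) and 6 lower (30.5%), with a median of -0.27 against 0.00, and 4 passed without Brwd1-labelled replicate 1. The libraries did not overlap for 9 genes (68.4% of all genes), 2 higher (33.6%) and 7 lower (34.9%). Between the Brwd1-labelled and euploid libraries, 5 passed where 29.2% of all genes did, 3 higher (14%) and 2 lower (15.2%), with a median of 0.11 against -0.02. The libraries did not overlap for 7 genes (45.9%), 4 higher (22.3%) and 3 lower (23.6%). The first 2 comparisons share the Ts65Dn libraries, and 5 of the 10 genes (Sod2, Gpx1, Gpx4, Nqo1 and Hmox1) passed in both in opposite directions, as 36.5% of all genes did.

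**Figure D1:**
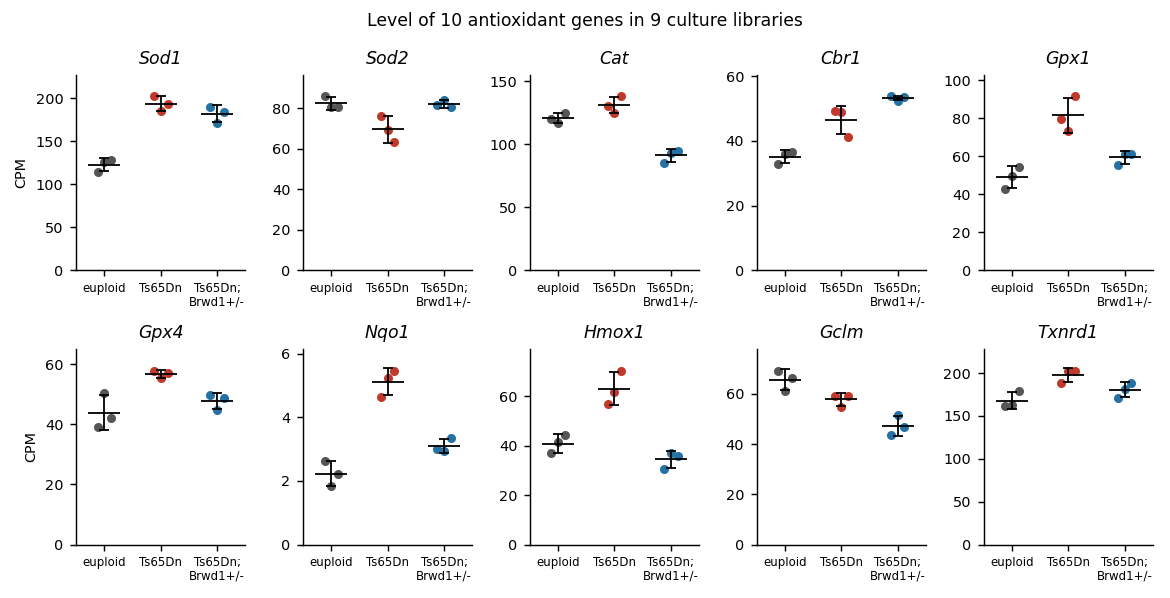
Scaled counts (CPM, y axis from 0) of each of the 10 genes in the 9 culture libraries, with 3 points per genotype, the mean as a horizontal bar and the SD as error bars. Sod1, Cbr1, Gpx1 and Nqo1 are higher in all 6 trisomic libraries than in the 3 euploid ones. Gpx1, Nqo1 and Hmox1 are highest in the 3 Ts65Dn libraries.

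Marker genes of several cell types differed between the genotypes, the summed radial glia markers being highest and the summed neuronal markers lowest in Ts65Dn. Summed CPM of 12 radial glia markers lay between 4840 and 5540 in euploid, 7810 and 10000 in Ts65Dn and 3750 and 4270 in the Brwd1-labelled libraries, while 12 glutamatergic markers lay between 1450 and 1900, 396 and 988, and 1440 and 2000. Of the radial glia markers, 7 of 12 were higher and 3 lower in Ts65Dn than in euploid. Vim alone stood at 2720, 5730 and 1540 CPM in the 3 genotypes. Hes5 (4.75, 1.34 and 15.5 CPM), Fabp7 (299, 260 and 505) and Ptprz1 (960, 752 and 1050) were instead lowest in Ts65Dn and highest in the Brwd1-labelled libraries. The 12 endothelial and pericyte markers summed to between 139 and 162 CPM in euploid, 736 and 969 in Ts65Dn and 137 and 187 in the Brwd1-labelled libraries, most of it Kdr (83.1, 755 and 112 CPM), whereas Cldn5, which defines brain endothelium, was at 0 in all 9 libraries. The 12 astrocyte markers summed to between 3600 and 4430, 4080 and 4770, and 4160 and 4720 CPM. The 12 microglial markers summed to at most 54.0 CPM in any library, and Tmem119 stood at 0.108 CPM or less in each genotype. Interneuron and cell cycle markers were highest in the Brwd1-labelled libraries. Summed markers of GABAergic interneurons lay between 633 and 698, 148 and 257, and 1060 and 1170 CPM, of the oligodendrocyte lineage between 362 and 415, 614 and 715, and 959 and 1160, and of the cell cycle between 289 and 312, 398 and 467, and 707 and 717. Meninges and fibroblasts summed to between 95.2 and 140, 215 and 297, and 156 and 186 CPM, carried by Col1a1 and Postn in Ts65Dn (126 and 84.4 CPM) and by Pdgfra in the Brwd1-labelled libraries (128 CPM), while of the 10 tested members 4 were higher and 5 lower in Ts65Dn than in euploid and 2 higher and 8 lower in the Brwd1-labelled libraries than in euploid. Choroid plexus markers summed to between 153 and 765, 271 and 345, and 46.8 and 65.0. In bulk RNA, fewer cells of a type and less RNA per cell cannot be told apart, and the part of this shift in the results that follow was not tested.

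Sod1 and Sod2 went in opposite directions in Ts65Dn. Sod1 (ENSMUSG00000022982, chromosome 16, 90220754 to 90226329, mm10) encodes the copper and zinc dismutase of the cytosol. It stood at 114, 126 and 128 CPM in the euploid libraries, at 202, 185 and 193 CPM in the Ts65Dn libraries, and at 190, 171 and 184 CPM in the Brwd1-labelled libraries. All 6 trisomic libraries were above all 3 euploid ones, and the trisomic genotypes overlapped each other. Sod1 rose 1.58-fold in Ts65Dn (95% CI 1.40 to 1.78, log2 0.66 ± 0.08 SE, adjusted p = 1.56e-04) and 1.48-fold in the Brwd1-labelled libraries (CI 1.32 to 1.67, adjusted p = 4.89e-04), and the trisomic genotypes differed by -0.09 on the log2 scale (CI -0.26 to 0.08, adjusted p = 0.333). The last 650 bases of Sod1 overlap Scaf4 on the other strand, and the library kit does not mark strand, so reads there cannot be told apart. Scaf4 itself rose 1.48-fold and 1.60-fold.

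Sod2 (chromosome 17, 13006846 to 13040063) encodes the manganese dismutase of mitochondria and lies 4.02 Mb beyond the triplicated part of its chromosome. It stood at 85.8, 80.7 and 80.3 CPM in euploid, 76.3, 69.0 and 63.2 CPM in Ts65Dn, and 81.5, 84.0 and 80.3 CPM in the Brwd1-labelled libraries. The Ts65Dn libraries were the 3 lowest, and the other genotypes overlapped. Sod2 fell by 0.24 on the log2 scale in Ts65Dn (adjusted p = 0.0267) and was higher by 0.24 in the Brwd1-labelled libraries than in Ts65Dn (adjusted p = 0.0237). Both calls rested on single libraries. The first was lost without euploid replicate 1 (adjusted p = 0.0759), Ts65Dn replicate 2 (0.0729) or Ts65Dn replicate 3 (0.0966), and the second without Ts65Dn replicate 2 (0.0666) or 3 (0.0893) or any Brwd1-labelled replicate (0.0510 to 0.0682). Between the Brwd1-labelled libraries and euploid Sod2 differed by -0.01 (CI -0.18 to 0.17, adjusted p = 0.966).

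Other genes of superoxide handling changed as well. Sod3, the dismutase secreted to the extracellular space, rose 2.25-fold in Ts65Dn (75.3 ± 7.19 to 170 ± 30.6 CPM, adjusted p = 2.56e-04) and stood at 33.0 ± 5.00 CPM in the Brwd1-labelled libraries, 0.438 times the euploid level (adjusted p = 3.47e-04). Ccs, the chaperone that hands copper to SOD1, rose 1.37-fold in Ts65Dn (adjusted p = 0.00443) and was lower by 0.35 on the log2 scale in the Brwd1-labelled libraries than in Ts65Dn (adjusted p = 0.0117). Pex5, the receptor that brings catalase into peroxisomes, did not pass in any comparison (log2 -0.11, 0.15 and 0.04). Of the 6 genes in this list, Sod1, Sod2 and Cat included, 3 rose and 1 fell in Ts65Dn, where 25.6% and 21.1% of all genes did.

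The enzymes that remove peroxides differed from each other across the genotypes. Cat, the catalase of peroxisomes (chromosome 2, 103453849 to 103485160), stood at 120, 117 and 125 CPM in euploid, 130, 125 and 138 CPM in Ts65Dn, and 85.2, 93.3 and 94.9 CPM in the Brwd1-labelled libraries. The last 3 libraries were the lowest, below every library of the other genotypes. Cat was 0.695 times the Ts65Dn level there (CI 0.622 to 0.776, adjusted p = 1.59e-04) and 0.755 times the euploid level (CI 0.676 to 0.843, adjusted p = 0.00215), and it did not pass between Ts65Dn and euploid (log2 0.12, CI -0.04 to 0.28, adjusted p = 0.192).

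Gpx1, the selenium-dependent glutathione peroxidase of cytosol and mitochondria (chromosome 9, 108338903 to 108340343), stood at 42.8, 49.7 and 54.4 CPM in euploid, 79.8, 73.2 and 91.5 CPM in Ts65Dn, and 55.4, 61.1 and 61.4 CPM in the Brwd1-labelled libraries. No library of one genotype overlapped another genotype, with Ts65Dn on top. Gpx1 rose 1.66-fold in Ts65Dn (CI 1.41 to 1.97, adjusted p = 5.81e-04) and was 0.727 times the Ts65Dn level in the Brwd1-labelled libraries (CI 0.616 to 0.858, adjusted p = 0.00434). Its difference from euploid there was 0.28 on the log2 scale (CI 0.03 to 0.52) and did not pass (adjusted p = 0.0832), although it passed without Ts65Dn replicate 3 (adjusted p = 0.0380).

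Gpx4, which reduces lipid peroxides in membranes and holds back ferroptosis (chromosome 10, 80047166 to 80056439), stood at 39.2, 50.5 and 42.0 CPM in euploid, 57.9, 55.3 and 57.2 CPM in Ts65Dn, and 49.7, 44.7 and 48.7 CPM in the Brwd1-labelled libraries. The Ts65Dn libraries were the 3 highest. Gpx4 rose 1.29-fold in Ts65Dn (CI 1.12 to 1.50, adjusted p = 0.00988), a call lost without euploid replicate 3 (0.0637). It was lower by 0.25 on the log2 scale in the Brwd1-labelled libraries than in Ts65Dn (adjusted p = 0.0427), but this was lost in 13 of 18 alternative analyses, among them the DESeq2 test (0.0692) and the analyses without euploid replicate 3 or any replicate of the trisomic genotypes (0.0589 to 0.159).

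The ratio of Sod1, 1 of the genes whose enzymes make hydrogen peroxide, to Cat plus Gpx1, which are 2 of those that remove it, was taken from RPKM (CPM per kilobase of merged exons). It was 0.380, 0.399 and 0.375 in the euploid libraries, 0.483, 0.473 and 0.418 in the Ts65Dn libraries, and 0.675, 0.552 and 0.586 in the Brwd1-labelled libraries. The 3 genotypes did not overlap, and the means were 0.385 ± 0.0127, 0.458 ± 0.0349 and 0.604 ± 0.0634 (SD, n = 3). The level of the ratio depended on the length used for Sod1, since with principal transcripts it was 2.08, 2.40 and 3.15 in the same order. No test was made of this ratio, which was chosen with its genes' values known.

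**Figure D2:**
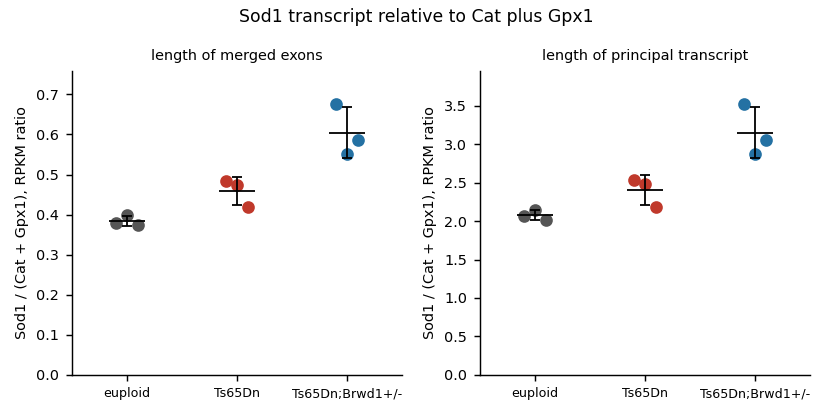
Ratio of the Sod1 level to the summed level of Cat and Gpx1 (RPKM, linear y axis from 0) in each of the 9 libraries, with merged exon lengths on the left and principal transcript lengths on the right, and bars for the mean and SD. The order of the 3 genotypes is the same on both sides, with means of 0.385, 0.458 and 0.604 on the left and 2.08, 2.40 and 3.15 on the right.

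Gclm, the modifier subunit of the enzyme that starts glutathione synthesis (chromosome 3, 122245557 to 122270732), stood at 69.3, 61.1 and 66.4 CPM in euploid, 59.3, 54.8 and 59.3 CPM in Ts65Dn, and 43.7, 51.6 and 46.8 CPM in the Brwd1-labelled libraries. The genotypes did not overlap, and the Brwd1-labelled libraries were the 3 lowest. Gclm was 0.722 times the euploid level there (CI 0.636 to 0.819, adjusted p = 0.00200) and 0.819 times the Ts65Dn level (adjusted p = 0.0121, and 0.0588 without Brwd1-labelled replicate 1). Between Ts65Dn and euploid it did not pass (log2 -0.18, adjusted p = 0.0922), although it did without Brwd1-labelled replicate 1 (0.0463) or 2 (0.0486). A non-coding transcript on the other strand overlaps most of the gene.

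Gclc, which encodes the catalytic partner of Gclm, was lowest in the same libraries. It stood at 176 ± 11.8 CPM in euploid, 143 ± 8.45 in Ts65Dn and 96.0 ± 12.6 in the Brwd1-labelled libraries, and it passed in all 3 comparisons (log2 -0.30, -0.57 and -0.88, adjusted p = 0.0340, 9.68e-04 and 2.33e-04). Slc7a11, which imports cystine for glutathione synthesis, fell by 1.39 in Ts65Dn (10.8 to 4.09 CPM, adjusted p = 2.06e-04) and stood at 11.1 CPM in the Brwd1-labelled libraries. Gss, the enzyme of the last step of the synthesis, rose instead in Ts65Dn (log2 0.39, adjusted p = 0.0108). The peroxidases of the secretory pathway and plasma rose in Ts65Dn, Gpx8 from 49.5 to 91.2 CPM (log2 0.88), Gpx7 from 1.10 to 3.13 CPM (log2 1.51) and Gpx3 from 1.13 to 4.16 CPM (log2 1.87), and all 3 were lower in the Brwd1-labelled libraries than in Ts65Dn (log2 -1.37, -1.65 and -1.54). Mgst3, a microsomal glutathione transferase, fell by 0.90 in Ts65Dn and was higher by 0.82 in the Brwd1-labelled libraries than in Ts65Dn. The cytosolic transferase Gstm1 was lower in each comparison (log2 -0.33, -0.35 and -0.68), and Chac1, which degrades glutathione, was higher in the Brwd1-labelled libraries (log2 0.80 against Ts65Dn and 0.61 against euploid). Of the 18 genes tested for glutathione synthesis and use, 9 rose and 4 fell in Ts65Dn (25.6% and 21.1% of all genes), 3 were higher and 12 lower in the Brwd1-labelled libraries than in Ts65Dn (27.6% and 30.5%), and 1 was higher and 5 lower than in euploid (14% and 15.2%).

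Txnrd1, the thioredoxin reductase of the cytosol (chromosome 10, 82833951 to 82897712), stood at 162, 163 and 179 CPM in euploid, 189, 202 and 203 CPM in Ts65Dn, and 171, 182 and 189 CPM in the Brwd1-labelled libraries. The Ts65Dn libraries were above the euploid ones. The rise in Ts65Dn was 1.18-fold (CI 1.05 to 1.32, adjusted p = 0.0269) and was lost in 11 of 18 alternatives, among them those without any euploid replicate, Ts65Dn replicate 2 or 3, or Brwd1-labelled replicate 2 or 3 (0.0565 to 0.0801). The other differences were -0.13 (adjusted p = 0.157) and 0.10 (adjusted p = 0.348). The bodies of Eid3 and of non-coding genes overlap that of Txnrd1. Thioredoxin recharges peroxiredoxins. Prdx4 of the endoplasmic reticulum rose in Ts65Dn from 28.6 to 50.9 CPM (log2 0.83, adjusted p = 2.78e-05) and stood at 26.9 CPM in the Brwd1-labelled libraries, while Prdx2, which is abundant in neurons and red cells, was highest there (146, 137 and 214 CPM, log2 0.64 against Ts65Dn, adjusted p = 2.38e-05). Prdx1, Prdx5 and Prdx6 were lower in the Brwd1-labelled libraries than in Ts65Dn (log2 -0.75, -0.38 and -0.63), and Prdx5 rose in Ts65Dn (0.24). Msrb1, a methionine sulfoxide reductase, rose by 0.64 in Ts65Dn and was lower by 0.44 in the Brwd1-labelled libraries. The glutaredoxins Glrx and Glrx2 fell by 0.58 and 0.40 in Ts65Dn and were higher by 0.44 and 0.37 in the Brwd1-labelled libraries, where the mitochondrial Glrx5 and Txn2 were also higher than in Ts65Dn (0.34 and 0.22). Of the 17 genes of this list that were tested, 4 rose and 2 fell in Ts65Dn (25.6% and 21.1% of all genes), and 5 were higher and 10 lower in the Brwd1-labelled libraries than in Ts65Dn (27.6% and 30.5%).

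Cbr1, a carbonyl reductase that takes NADPH to reduce quinones and lipid aldehydes (ENSMUSG00000051483, chromosome 16, 93605853 to 93610505), is the other triplicated gene of the 10. It stood at 32.8, 36.0 and 36.5 CPM in euploid, 49.1, 48.8 and 41.3 CPM in Ts65Dn, and 53.8, 52.4 and 53.5 CPM in the Brwd1-labelled libraries. The 3 genotypes did not overlap, and Ts65Dn replicate 3 was nearest to euploid. Cbr1 rose 1.32-fold in Ts65Dn (CI 1.16 to 1.50, adjusted p = 0.00338) and 1.52-fold in the Brwd1-labelled libraries (CI 1.33 to 1.72, adjusted p = 5.36e-04). The trisomic genotypes differed by 0.20 (CI 0.02 to 0.38, adjusted p = 0.0597), which passed in 5 of 18 alternatives, such as total-count scaling (0.0173) and the analysis without Ts65Dn replicate 1 (0.0478). Cbr3, its paralogue in the same segment, rose from 3.25 to 6.15 CPM in Ts65Dn (log2 0.92) and to 7.74 CPM in the Brwd1-labelled libraries (log2 1.25). How reads were divided between paralogues is not stated.

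Nqo1, the NADPH quinone reductase and a standard NRF2 target (chromosome 8, 107388225 to 107403206), had the lowest level of the 10. It stood at 2.62, 1.84 and 2.23 CPM in euploid, 4.65, 5.24 and 5.47 CPM in Ts65Dn, and 2.99, 2.95 and 3.36 CPM in the Brwd1-labelled libraries, from 42 to 124 counts a library. The genotypes did not overlap, with Ts65Dn on top. Nqo1 rose 2.30-fold in Ts65Dn (CI 1.81 to 2.91, adjusted p = 2.67e-04), the largest fold of the 10 in that comparison, and was 0.609 times the Ts65Dn level in the Brwd1-labelled libraries (CI 0.485 to 0.764, adjusted p = 0.00207). The difference from euploid there was 1.40-fold (adjusted p = 0.0468) and was lost in 11 of 18 alternatives, among them those without euploid replicate 2 or 3, Ts65Dn replicate 1 or 2, or any Brwd1-labelled replicate (0.0511 to 0.187).

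Hmox1, which degrades haem and is induced by oxidative stress (chromosome 8, 75093621 to 75100589), stood at 37.0, 41.3 and 44.3 CPM in euploid, 57.0, 61.9 and 70.4 CPM in Ts65Dn, and 30.6, 37.0 and 35.8 CPM in the Brwd1-labelled libraries. The Ts65Dn libraries were the 3 highest. Hmox1 rose 1.54-fold in Ts65Dn (CI 1.31 to 1.82, adjusted p = 0.00124) and was 0.546 times that level in the Brwd1-labelled libraries (CI 0.463 to 0.644, adjusted p = 8.05e-05), where the difference from euploid did not pass (log2 -0.25, adjusted p = 0.117), although it did with 1 factor of unwanted variation (0.0148). Hmox2, the constitutive haem oxygenase, went the other way, from 28.5 to 23.6 CPM in Ts65Dn (log2 -0.27, adjusted p = 0.0248) and 28.2 CPM in the Brwd1-labelled libraries, and so did Blvra, which reduces the biliverdin they release (6.85, 4.84 and 8.12 CPM). Akr1b10, Blvrb and Nqo2 rose in Ts65Dn (log2 0.55, 0.46 and 0.42), and Akr1b10 and Nqo2 were lower in the Brwd1-labelled libraries than in Ts65Dn (-0.71 and -0.74). The ferritin chains, which store the iron that haem breakdown releases, were split there, Fth1 lower by 0.34 and Ftl1 higher by 0.43. Of the 15 genes for quinones, carbonyls and haem, 7 rose and 2 fell in Ts65Dn (25.6% and 21.1% of all genes), 5 were higher and 6 lower in the Brwd1-labelled libraries than in Ts65Dn (27.6% and 30.5%), and 4 were higher and 1 lower than in euploid (14% and 15.2%).

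**Figure D3:**
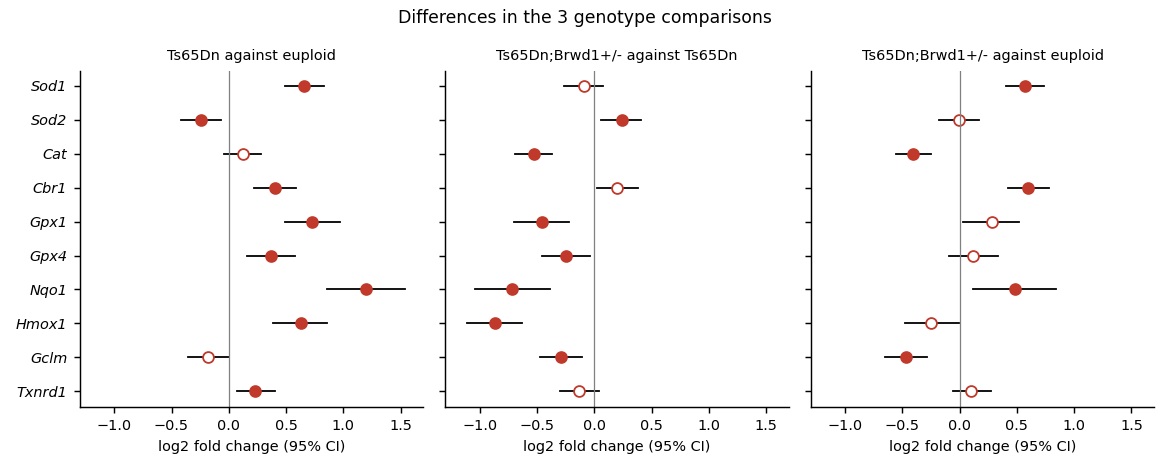
Log2 fold change of each of the 10 genes in the 3 comparisons (points, with 95% confidence intervals as lines), filled where the adjusted p was under 0.05. Nqo1, Gpx1 and Hmox1 lie right of 0 on the left and left of 0 in the middle. Sod1, Cbr1, Gpx1, Gpx4, Nqo1 and Txnrd1 lie right of 0 on the left and on the right.

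The regulators of the NRF2 pathway were described beside their targets. Nfe2l2 rose 1.36-fold in Ts65Dn (188 ± 21.2 to 257 ± 31.2 CPM, adjusted p = 0.0402) and stood at 97.7 ± 21.2 CPM in the Brwd1-labelled libraries, 0.519 times the euploid level (adjusted p = 0.00167). Bach1, the repressor, lies in the triplicated segment and was ordered differently, with 27.3 ± 1.12 CPM in euploid, 36.7 ± 0.432 in Ts65Dn and 56.8 ± 1.44 in the Brwd1-labelled libraries (log2 0.43, 0.63 and 1.06, adjusted p = 6.15e-04, 2.11e-05 and 5.76e-06). Maff, a small MAF partner, rose from 5.90 to 13.3 CPM in Ts65Dn and stood at 5.95 CPM in the Brwd1-labelled libraries, while Mafg fell by 0.32 and was then higher by 0.27. Keap1, which targets NRF2 for degradation, did not pass in any comparison (log2 0.09, -0.12 and -0.03). Nfe2l1, a relative of Nfe2l2, rose by 0.35 in Ts65Dn and was lower by 0.59 in the Brwd1-labelled libraries, and Bach2 was higher in each comparison (log2 0.25, 0.29 and 0.54). Of the 10 regulators 5 rose and 1 fell in Ts65Dn (25.6% and 21.1% of all genes), and 3 were higher and 5 lower in the Brwd1-labelled libraries than in Ts65Dn (27.6% and 30.5%).

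Among NADPH-supplying enzymes, Tkt of the pentose phosphate pathway rose from 338 to 466 CPM in Ts65Dn (log2 0.47, adjusted p = 0.00182) and cytosolic Idh1 fell from 127 to 96.3 CPM (log2 -0.40, adjusted p = 0.00242), and in the Brwd1-labelled libraries they stood at 315 and 149 CPM. Mitochondrial Idh2 and G6pdx, the entry enzyme of the pentose phosphate pathway, rose in Ts65Dn (log2 0.49 and 0.42), Me1 was lower in the Brwd1-labelled libraries than in Ts65Dn (-0.58), and Nnt was higher there at a low level (0.883 against 0.328 CPM). Slc7a5, an amino acid transporter rather than an NADPH source, fell by 0.48 in Ts65Dn and was higher by 0.65 in the Brwd1-labelled libraries. Of the 10 genes of this list, 5 rose and 2 fell in Ts65Dn (25.6% and 21.1% of all genes). Of 10 genes of selenoprotein synthesis and transport, which Gpx1, Gpx4 and Txnrd1 depend on, 3 rose and 1 fell (25.6% and 21.1% of all genes), and Selenop, the selenium carrier, went from 11.9 to 30.2 and 36.1 CPM (log2 1.35 in Ts65Dn and 1.60 in the Brwd1-labelled libraries against euploid). Its receptor Lrp8 rose by 0.42 in Ts65Dn and Selenow, a small selenoprotein, fell by 0.48, and in the Brwd1-labelled libraries they were lower by 0.26 and higher by 0.63 than in Ts65Dn. Sephs1 rose in Ts65Dn (log2 0.31), and against Ts65Dn the Brwd1-labelled libraries were higher for Sephs2 (0.25) and lower for Eefsec (-0.24) and Pstk (-0.25), genes of selenium activation and selenocysteine insertion. Of 7 tested genes of superoxide-producing oxidases, 2 rose and 0 fell in Ts65Dn (25.6% and 21.1% of all genes), Nox4 from 2.12 to 4.66 CPM and Cyba from 2.48 to 3.92 CPM. In the Brwd1-labelled libraries 0 were higher and 2 lower than in Ts65Dn (27.6% and 30.5%) and 0 higher and 3 lower than in euploid (14% and 15.2%), with Nox4 at 1.25 CPM, Cybb, the oxidase subunit of phagocytes, at 0.114 CPM against 0.970 in Ts65Dn and 1.15 in euploid, and Ncf1 at 0.253 against 0.787 CPM in euploid. These low levels stood beside summed microglial markers of 27.1 to 37.8, 44.1 to 54.0 and 18.3 to 25.2 CPM in the 3 genotypes, and the part of those cells was not tested. Over the 83 tested pathway genes other than the 10, 31 rose and 12 fell in Ts65Dn with a median log2 fold change of 0.14, where 25.6% and 21.1% of all genes did with a median of 0.04. Against Ts65Dn, 21 were higher and 38 lower in the Brwd1-labelled libraries with a median of -0.25 (27.6% and 30.5% of all genes, median 0.00), and against euploid 14 were higher and 14 lower with a median of -0.05 (14% and 15.2%, median -0.02).

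The changes of Sod1 and Cbr1 were set against the triplicated segment. The 134 tested genes of the segment had a median log2 fold change of 0.63 in Ts65Dn (quartiles 0.24 and 0.99), and 63 of them had a larger value than Sod1 (0.66) and 90 a larger one than Cbr1 (0.40). Against euploid, the Brwd1-labelled libraries had a segment median of 0.55 (quartiles 0.27 and 0.74), with 62 genes above Sod1 (0.57) and 57 above Cbr1 (0.60). The 5 nearest tested protein-coding genes on each side of both made 20 neighbours, of which 14 rose and 2 fell in Ts65Dn (25.6% and 21.1% of all genes). In the Brwd1-labelled libraries 8 were higher and 8 lower than in Ts65Dn (27.6% and 30.5%), and 14 higher and 2 lower than in euploid (14% and 15.2%). The nearest neighbours of Sod1 were Tiam1, which fell by 0.50, and Scaf4, which rose by 0.56. Next to Cbr1, Setd4 stood at 7.40 and 7.67 CPM (log2 0.05, adjusted p = 0.791), and farther off Runx1 rose from 0.461 to 7.54 CPM and stood at 0.173 CPM in the Brwd1-labelled libraries.

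**Figure D4:**
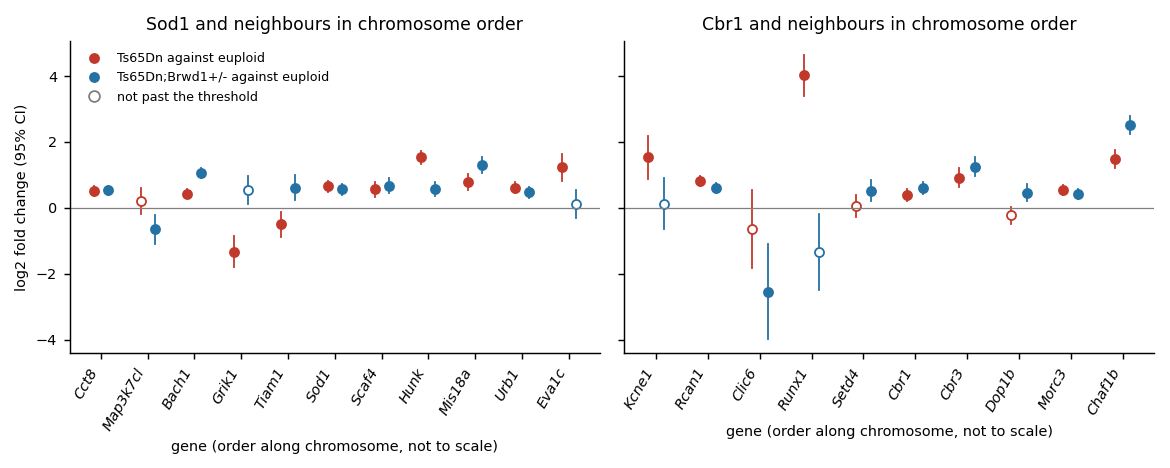
Log2 fold change against euploid (y axis, with 95% confidence intervals) of Sod1 and Cbr1 and their nearest tested protein-coding neighbours in chromosome order, for Ts65Dn and for the Brwd1-labelled libraries, filled where the adjusted p was under 0.05. Gm5678, which had 0.0475 CPM in euploid, is left out. Sod1 (0.66 and 0.57) and Cbr1 (0.40 and 0.60) were above 0 in both, while Grik1 (-1.33), Tiam1 (-0.50) and Runx1 (4.02) departed from their neighbours in Ts65Dn.

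Over the 9 libraries the genes whose log2 CPM followed Sod1 most closely were Anapc13, Gm26825, Pcdhga5, Bub3 and Tmem242 (Pearson's r from 0.983 to 0.988), of which Tmem242 lies in the triplicated part of chromosome 17 and none in that of chromosome 16. For Cbr1 they were Atp5o, in the chromosome 16 segment, and Tpt1-ps3, C030005K06Rik, Scg5 and Dlgap5 (r from 0.964 to 0.977). Sod1 and Cbr1 correlated with r of 0.861, and Gpx1 with Txnrd1 with r of 0.913. Cat went with Hmox1 (0.843) and Gclm (0.797) rather than with Gpx1 (0.381). These are descriptions over libraries that share genotype, depth and cell content.

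Compared per length, the order of the 10 genes depended on the transcript length used. With merged exons Cat (46.2 ± 1.59 RPKM, SD), Gpx1 (34.0 ± 4.05) and Sod1 (30.9 ± 1.89) led in euploid, Gpx1 and Sod1 overlapping, and Nqo1 was last (1.44 ± 0.251). With principal transcripts Sod1 led at 191 ± 11.7 RPKM, followed by Txnrd1, Cat, Gpx4 and Gpx1 (47.6, 46.2, 45.8 and 45.7 RPKM), which overlapped. In the Brwd1-labelled libraries Sod1 had rank 1 with both lengths, and Cat had rank 3 with merged exons and rank 6 with principal transcripts.

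In the ATAC-seq lists of adult neuronal nuclei, at least 1 peak named 7 of the 10 genes in euploid (41.4% of protein-coding genes), 9 in Ts65Dn (52.2%) and all 10 in Ts65Dn;Brwd1+/- (52.1%). The lists held 15521, 29195 and 30244 peaks, they came without replicate error, and their depth is unknown, so no test between genotypes was made. Sod1, Sod2, Cat, Gpx1, Gpx4, Gclm and Txnrd1 had a proximal promoter peak in all 3. A promoter peak was listed for 7 genes in the euploid list (34.7% of protein-coding genes), 8 in that of Ts65Dn (42.0%) and all 10 in that of Ts65Dn;Brwd1+/- (41.4%). Hmox1 and Nqo1 were first named in the Ts65Dn list, as were 21.2% of the protein-coding genes not named in euploid, and Cbr1 in the Ts65Dn;Brwd1+/- list, as were 7.72% of those not named in Ts65Dn (20.8% of those not named in euploid went into the last list). No gene of the 10 was lost between lists, where 3.77% of genes were lost from euploid to Ts65Dn, 7.24% from Ts65Dn to Ts65Dn;Brwd1+/- and 3.50% from euploid to the latter. A peak given to another gene or to none lay within 5 kb of Cbr1 in the euploid and Ts65Dn lists too, so that by distance 8 of the 10 genes had a peak in euploid (51.7% of protein-coding genes), 10 in Ts65Dn (62.5%) and 10 in Ts65Dn;Brwd1+/- (62.1%). Peaks with a fold enrichment of at least 4 named 5 of the 10 genes in the euploid list (27.3% of protein-coding genes), 7 in that of Ts65Dn (41.9%) and 6 in that of Ts65Dn;Brwd1+/- (32.5%).

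Fold enrichment over local background is a linear ratio that the caller gives for each peak. At the Sod1 promoter it was 3.22, 4.12 and 3.37 in the 3 lists in that order, and the peaks covered 281, 300 and 300 bases of the Sod1 window shown above. At Sod2 it was 6.52, 7.88 and 6.53, and at Cat 6.21, 7.10 and 7.17. Gpx1 had 3.55, 6.37 and 4.69, and its ratio of Ts65Dn to euploid, 1.79, was above that of 98.9% of the 6828 genes with a proximal promoter peak in all 3 lists, whose median was 1.24. In the culture RNA Gpx1 was likewise highest in Ts65Dn, but the tissue and age differed. The other ratios of Ts65Dn to euploid lay between 1.14 (Cat) and 1.36 (Txnrd1).

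The Cbr1 promoter peak in the Ts65Dn;Brwd1+/- list had a fold enrichment of 2.33, a value that 1.35% of the peaks of that list lay below, with a q-value of 1.49e-08. It covered 102 bases of the Cbr1 window. Nqo1 had a peak in its body in Ts65Dn (3.79) and, in Ts65Dn;Brwd1+/-, one in its body (3.00) and one at the promoter (3.07) that covered 140 bases of its window. Hmox1 had a promoter peak of 3.23 in Ts65Dn and of 3.50 in Ts65Dn;Brwd1+/-. The core TGACNNNGC was in the central 300 bases of the promoter peaks of Sod1, Sod2, Gclm and Txnrd1 in all 3 lists, and of none of the others, against 14.4% of all euploid peaks, 13.5% of Ts65Dn peaks and 13.7% of those of the last list.

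**Figure D5:**
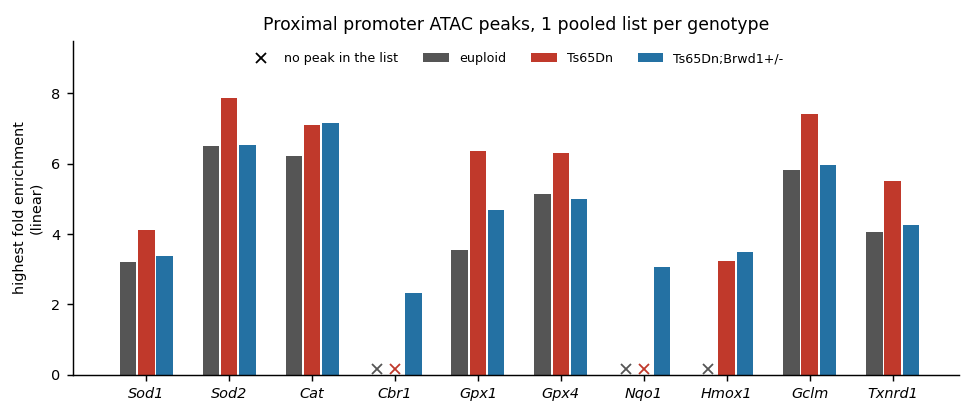
Highest fold enrichment (linear, y axis from 0) of a proximal promoter ATAC-seq peak naming each of the 10 genes, 1 bar per pooled genotype list and a cross where the list held none. All 7 genes with 3 bars are higher in Ts65Dn than in euploid, as was the median gene (ratio 1.24), and Gpx1 has the largest ratio of them (1.79).

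SMARCA2/4 peaks named 7 of the 10 genes in euploid hippocampus (29.5% of protein-coding genes), 0 in Ts65Dn (3.26%) and 1 in Ts65Dn;Brwd1+/- (3.73%), with 22667, 1290 and 1873 peaks in the lists. At the proximal promoter they named 4 (16.6% of protein-coding genes), 0 (0.678%) and 0 (1.03%). Of the protein-coding genes named in euploid, 90.1% were not named in Ts65Dn and 88.6% not in Ts65Dn;Brwd1+/-. The 11 euploid peaks named Sod1, Sod2, Cat, Gpx1, Gpx4, Hmox1 and Gclm, had fold enrichments between 3.02 and 4.52, and none was shared by 1 base with a peak of another genotype. The highest were in Sod2 (4.52, 971 bases from the start, q = 1.93e-04), Gpx1 (4.37, q = 2.82e-04) and Cat (4.33, q = 2.03e-04), and the Gclm peak had a q-value of 0.0721. The Gpx1 peak at chr9:108338890-108338973 lay wholly inside the Gpx1 window printed above, over 84 bases. The 1 peak in the Ts65Dn;Brwd1+/- list named Cbr1 (fold enrichment 3.45, q = 0.0260, 415 bases from the start), a gene that no euploid peak named, although 1 lay within 5 kb of it. Of genes not named in euploid 0.514% were named there, and of those not named in Ts65Dn 2.59%. Within 5 kb 8 of the 10 genes had a peak in the euploid list (36.9% of protein-coding genes), 1 in that of Ts65Dn (4.38%) and 1 in that of Ts65Dn;Brwd1+/- (5.27%). With a fold enrichment of at least 4, peaks named 4 of them in the first list (16% of protein-coding genes), 0 in the second (0.852%) and 0 in the third (1.71%). As all 10 genes were read in cultures of embryonic cells and the peaks in adult tissue, no test set a gene's level against its peaks.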

How the data were processed

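RNA from 9 forebrain cultures (3 libraries per genotype), 3 SMARCA2/4 ChIP-seq peak lists and 3 ATAC-seq peak lists from hippocampus were used. The kit for RNA (TruSeq RNA v2) does not mark strand, and reads were single. The authors aligned with HISAT2 to mm10 and deposited raw counts per gene. They name featureCounts, whereas the files end with htseq-count summary lines, which took 37.4 to 40.0% of counts per library and were left out. The peak lists, called by the authors with MACS on samples pooled per genotype, hold a fold enrichment, a linear ratio over background, and a q-value as deposited. The highest q-values in the ChIP lists were 0.153 to 1, so the lists are not limited to q-values under 0.05. Peaks were matched to genes by the identifier given to each.

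Of 52636 gene lines, 52403 had a symbol and position in GENCODE vM21. Counts were scaled by TMM to CPM, filtered with filterByExpr (17173 genes) and tested with edgeR 4.0.16 (R 4.3.3, quasi-likelihood, all 9 libraries in 1 fit, genotype as the only term, two-sided, Benjamini-Hochberg adjusted p over all genes, threshold 0.05). The fitting was tested on simulated counts. limma 3.58.1 (voom) and DESeq2 1.42.0 were alternatives, as were other scalings, filters, a replicate block, 1 factor of unwanted variation in the manner of RUVr, which the study used, the study's threshold of 0.1 and leaving out each library. log2 CPM used a prior count of 2. RPKM used merged exons or, as an alternative chosen after the data were seen, the principal transcript. Counting error weighs most on genes at a few CPM or less, such as Nqo1 among the 10. The depth behind the peak lists is unknown. Groups came from the sample labels. Deviations of same-numbered libraries correlated weakly between euploid and Ts65Dn (0.129, 0.206 and 0.263) and at -0.162 to 0.279 with the third genotype. These ranges overlap and no label gives a pairing, so whether the numbers pair libraries is not settled. The main fit used no replicate block. The triplicated segment was taken as chromosome 16 from 84717576 to its end and chromosome 17 up to 8986648.

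The 10 genes and all lists were chosen with earlier results of these data known. Beyond the 10 genes, those named were the called genes with the 3 largest rises and falls of each pathway list in each comparison, the neighbours by position and the 5 most correlated genes. Gss, Pex5 and Keap1 were named in addition after their values were seen.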

Additional observations from a re-analysis of the deposited data

How the results depend on the processing

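With each library left out in turn, 6 to 9 of the 10 genes passed between Ts65Dn and euploid, 4 to 7 between the Brwd1-labelled and Ts65Dn libraries, and 4 to 6 between the Brwd1-labelled and euploid libraries, with the 4 of the second comparison reached without Brwd1-labelled replicate 1. In all 18 alternatives the calls kept were those of Sod1, Cbr1, Gpx1, Nqo1 and Hmox1 between Ts65Dn and euploid, of Cat, Gpx1, Nqo1 and Hmox1 between the Brwd1-labelled and Ts65Dn libraries, and of Sod1, Cat, Cbr1 and Gclm between the Brwd1-labelled and euploid libraries. The difference of Sod2 from euploid in the Brwd1-labelled libraries changed sign, to 0.04 with total-count scaling, 0.005 with at least 10 counts in every library and between -0.07 and 0.02 with libraries left out, the last without euploid replicate 1.

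The ratio of Sod1 to Cat plus Gpx1 was 0.722, 0.912 and 1.21 in euploid, Ts65Dn and the Brwd1-labelled libraries without a length correction and 2.08, 2.40 and 3.15 with principal transcripts, in the same order, and leaving out a library gave 0.378 to 0.390, 0.446 to 0.478 and 0.569 to 0.630. At a fold enrichment of at least 4, SMARCA2/4 peaks named 4 genes in euploid (16% of protein-coding genes) and 0 in Ts65Dn;Brwd1+/- (1.71%), and ATAC-seq peaks named 5 genes in the euploid list (27.3%), 7 in that of Ts65Dn (41.9%) and 6 in the Brwd1-labelled list (32.5%). Counting peaks within 5 kb of the gene gave 1 gene (Hmox1) for SMARCA2/4 in Ts65Dn (4.38% of protein-coding genes). The cause of these changes was not tested, beyond the smaller number of peaks that a stricter limit leaves.

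With the replicate number as a replicate block, 8, 6 and 6 of the 10 genes passed in the 3 comparisons. No call changed between Ts65Dn and euploid. In the comparisons with the Brwd1-labelled libraries, Gpx4 was lost against Ts65Dn (adjusted p = 0.0578) and Nqo1 was lost against euploid (0.0615). Gpx1 (0.0339) and Hmox1 (0.0265) passed against euploid. No label says whether the numbers pair libraries, and the weak correlations do not settle it. Over the 3 genotypes 4 of 9 libraries correlated best with their own number in both other genotypes, a hint from the data. Of the 10 genes, depth limits Nqo1 most, with 42 to 124 counts a library.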
